A study of Mus musculus with 8 samples.

Results

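The Nrf2 pathway antioxidant genes were followed on 8 arrays of a mouse hepatocyte line through all probe sets that the platform annotation assigned to 10 named genes. The genes were Nfe2l2, Keap1, Nqo1, Hmox1, Gclc, Gclm, Txnrd1, Srxn1, Slc7a11 and G6pdx. They were chosen by name, with earlier results of these data known. Among the 45036 probe sets with a value on every array, 19 probe sets of 9 genes were found. G6pdx had 0 probe sets under that symbol in the annotation used and was not analysed here. Srxn1 had 4 probe sets, Txnrd1 had 3, Nqo1 and Hmox1 had 1 each, and the other members had 2 each. AML12 is a non-transformed hepatocyte line derived from a mouse that carries a transforming growth factor alpha transgene. The v-erbA line was AML12 transfected with v-erbA. This oncoprotein of a chicken retrovirus is an altered form of the thyroid hormone receptor and acts mainly as a repressor. The transfected line was compared with the AML12 control line, and the labels do not say whether the transfected cells were 1 clone or a pool. Each line was exposed to 1 µM retinoic acid (RA) or left untreated, and each was sampled at 24 h and at 3 h. The 8 combinations of line, treatment and time had 1 array each. Times were taken from the sample titles, since 3 of the 4 samples titled 24 h were described as 3 h elsewhere in the labels. The effect of v-erbA cannot be told apart from those of transfection and of the line chosen, and time cannot be told apart from any difference in how arrays of the 2 times were run.

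Nrf2, encoded by Nfe2l2, is a transcription factor that controls defence against oxidants and electrophiles. In unstressed cells Keap1 holds Nrf2 in the cytoplasm and passes it to a ubiquitin ligase for degradation. When oxidants modify Keap1, Nrf2 accumulates, pairs with small Maf proteins and binds antioxidant response elements of genes for glutathione synthesis, thioredoxin reduction, quinone reduction, haem breakdown and NADPH supply. Because this control acts largely on the protein, the arrays, which measured transcripts, do not report Nrf2 activity directly.

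The promoters of Srxn1, Gclm and Nfe2l2, whose transcripts differed between the lines, are shown first, since the binding element is short and can be read in them. Sequences are those of RefSeq on the mouse build GRCm38.p6, from 250 bases before to 50 bases after the transcription start, 5′ to 3′ on the gene's strand. A promoter entry was found for 8 of the 10 members, and none for Hmox1 and Gclc. Capitals mark matches to the core of the antioxidant response element in either of its forms, TGACNNNGC or TGAGNNNGC, searched on both strands, so a match on the opposite strand reads GCNNNGTCA or GCNNNCTCA. The windows of Srxn1 (chr2:152105274-152105573, plus strand), Gclm (chr3:122245307-122245606, plus strand) and Nfe2l2 (chr2:75704614-75704913, minus strand) read as follows.
Srxn1: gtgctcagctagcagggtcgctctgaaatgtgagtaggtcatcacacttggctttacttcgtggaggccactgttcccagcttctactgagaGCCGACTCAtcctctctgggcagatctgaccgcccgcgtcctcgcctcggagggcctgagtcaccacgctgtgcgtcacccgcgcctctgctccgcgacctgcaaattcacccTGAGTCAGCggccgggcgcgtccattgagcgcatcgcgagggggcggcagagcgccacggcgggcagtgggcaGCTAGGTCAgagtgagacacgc
Gclm: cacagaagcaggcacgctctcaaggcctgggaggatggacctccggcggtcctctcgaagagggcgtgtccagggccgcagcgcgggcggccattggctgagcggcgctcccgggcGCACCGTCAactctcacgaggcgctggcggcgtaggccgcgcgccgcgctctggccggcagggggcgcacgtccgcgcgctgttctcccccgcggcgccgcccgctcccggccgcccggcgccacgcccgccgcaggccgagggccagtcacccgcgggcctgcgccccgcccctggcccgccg
Nfe2l2: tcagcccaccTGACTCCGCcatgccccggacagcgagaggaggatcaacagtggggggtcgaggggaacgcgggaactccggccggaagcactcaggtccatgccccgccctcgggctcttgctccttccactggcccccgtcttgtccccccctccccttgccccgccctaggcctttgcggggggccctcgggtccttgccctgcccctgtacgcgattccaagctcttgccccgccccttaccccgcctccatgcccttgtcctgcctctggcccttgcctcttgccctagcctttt
The Srxn1 window held 3 matches, whose first bases lay at -158, -45 and 29 relative to the start. The one at -45 read TGAGTCAGC, which also contains the AP-1 motif TGAGTCA. The Gclm window held 1 match at -134 and the Nfe2l2 window 1 match at -240. Single matches were also found for G6pdx at -57, for Slc7a11 at -97 and in 1 of the 3 windows of Txnrd1 at -92, while the windows of Keap1 and Nqo1 held none. The Keap1 transcript also differed between the lines, so a match was not common to all members that differed. Of all 32851 promoter windows of the same length, 27.8% held at least 1 match and 0.63% held 3 or more. A match is a description of these letters and not a sign of binding.

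Median signals of the arrays lay between 71.2 and 76.1 units. Values are signal intensities on a linear scale as deposited, and differences are on the scale log2(signal + 19.9), which understates changes of dim probe sets. Testing required a signal over 73.5 units, the median of all values, on at least 2 arrays, which 24955 probe sets met. Of the 19 member probe sets 15 passed and 4 did not, leaving 8 members with a test. The hepatocyte label was checked with 9 hepatocyte markers, all of them above the pooled median on some arrays, with Alb at 9364 and Ttr at 10526 units on their lowest arrays. Of 6 mesenchymal markers 3 lay below the pooled median on all arrays, as did 2 of 4 macrophage and 2 of 4 endothelial markers. Summed signals were 271 to 439 units in the v-erbA line and 253 to 358 units in AML12 for the mesenchymal list. Within that list markers moved in opposite directions. Dcn had 126 to 149 units in the v-erbA line and 18.8 to 51.8 units in AML12. Col1a2 had 102 to 125 units in the v-erbA line and 131 to 211 units in AML12. For the macrophage list the sums were 236 to 405 units in the v-erbA line and 174 to 319 units in AML12. For the endothelial list they were 81.2 to 248 units in the v-erbA line and 132 to 220 units in AML12. In bulk RNA, fewer cells of a type and less RNA per cell cannot be told apart. No combination was replicated, so p-values measure the departure of these arrays from additive effects of line, treatment and time, and nothing in the labels says whether cultures were independent.

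**Figure D1:**
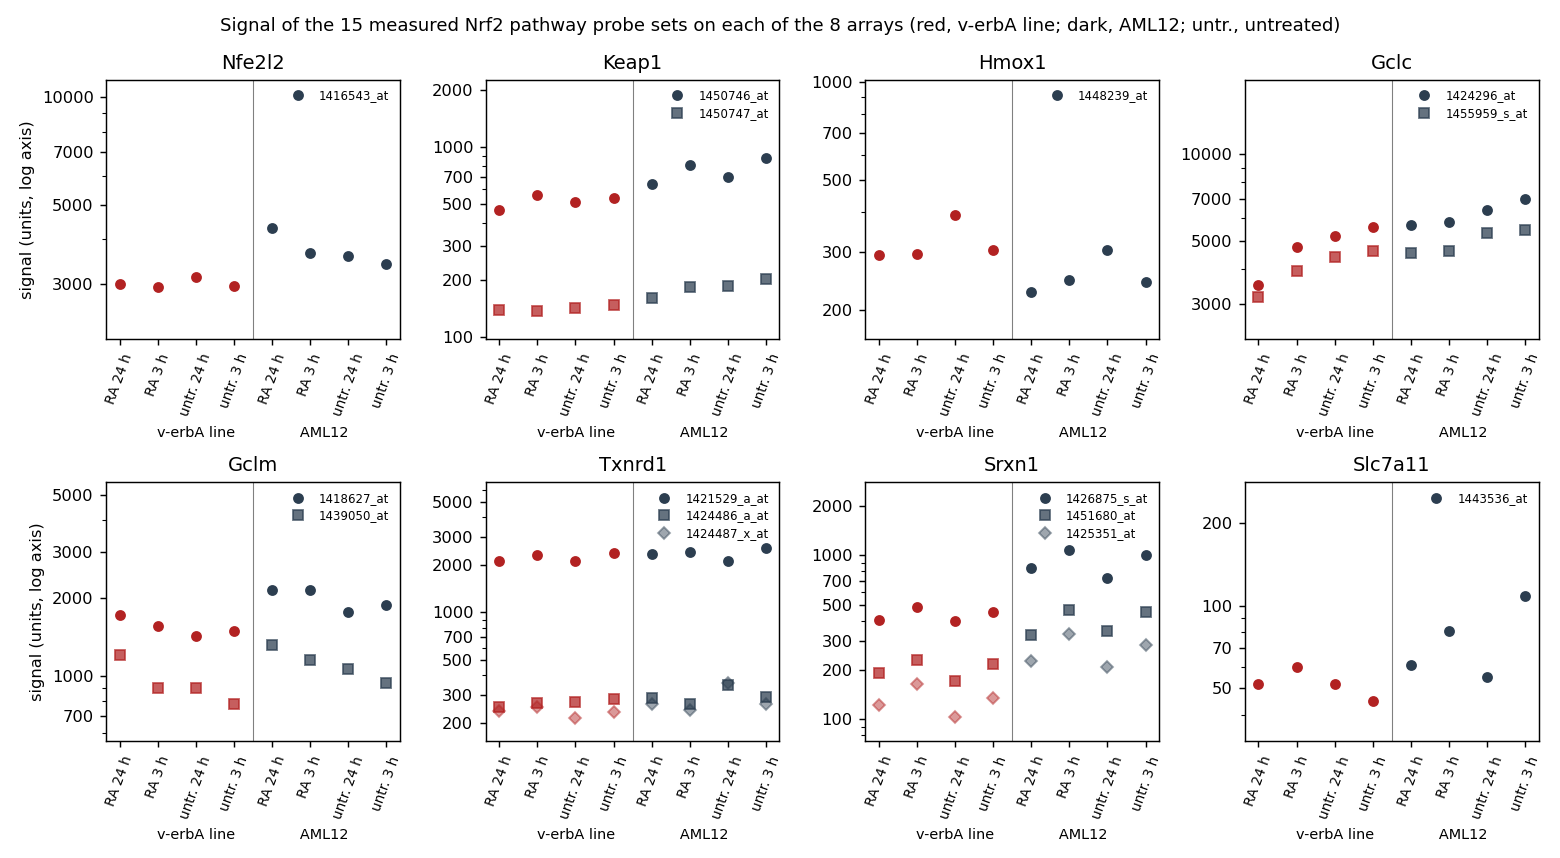
Signal in units on a log axis for the 15 tested member probe sets on each array, with the v-erbA line in red at the left and AML12 in dark at the right of each panel; each symbol shape is a probe set and each point is 1 array. The 3 Srxn1 probe sets are lower on all v-erbA arrays, Hmox1 is highest on the untreated 24 h array of each line, and Gclc is lowest on the v-erbA array with RA at 24 h.

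The comparison of the lines asked which pathway transcripts differed with v-erbA. Most were lower. Srxn1, the sulfiredoxin that restores overoxidized peroxiredoxins, showed the largest difference, on 3 probe sets. Gclc and Gclm, which together form the enzyme that limits glutathione synthesis, Nfe2l2 and its inhibitor Keap1 fell by smaller amounts, and Hmox1, the inducible haem oxygenase, rose. In counts, 10 of 15 tested member probe sets were lower and 1 was higher past the threshold (limma adjusted p under 0.05), against 24.3% lower and 25.4% higher, 49.7% in all, among all probe sets tested. The lines did not overlap, with v-erbA lower, on 8 of the 15 probe sets, of 5 genes, against 17.3% of all probe sets. Probe sets of 1 gene share their transcript, so the 10 represent 5 genes. With 1 probe set per gene, 5 of 8 members were lower and 1 was higher, against 26.9% and 26.5% of 12015 genes. The median member difference was -0.33 and that of all probe sets was 0.02. Since the members were chosen with earlier results of these data known, these shares describe the members and are no independent test.

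Srxn1 had 403 and 486 units (24 h and 3 h) with RA and 399 and 451 units untreated in the v-erbA line, on probe set 1426875_s_at. The AML12 arrays had 833 and 1072 units with RA and 723 and 1007 units untreated. The highest v-erbA array lay below the lowest AML12 array. The difference was -1.02 ± 0.06 (SE), or 2.02-fold lower, and it was negative in 4 of 4 pairs matched by treatment and time (limma adjusted p = 1.37e-06). The probe sets 1451680_at and 1425351_at gave -0.90 ± 0.06 each (limma adjusted p = 4.62e-06 and 4.54e-06), again with no overlap of the lines. Both derive from the same cDNA record in the annotation, so they are not independent of each other. The remaining Srxn1 probe set, 1419942_at, stayed below the pooled median, with 49.5 to 57.0 units in the v-erbA line and 42.3 to 67.7 units in AML12. Among 12015 genes, those whose mean-centred profiles over the 8 arrays lay nearest to that of Srxn1 were Fkbp11, Piga and Emp3, with root mean square differences of 0.07, 0.08 and 0.08 on the log2 scale. Srxn1 was the only member whose representative probe set spanned at least 1 log2 unit, the range set for this search.

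Gclc encodes the catalytic subunit of glutamate-cysteine ligase. Its probe set 1424296_at had 3499 and 4766 units (24 h and 3 h) with RA and 5197 and 5593 units untreated in the v-erbA line. The AML12 values were 5662 and 5832 units with RA and 6396.5 and 7010.4 units untreated. All 4 v-erbA arrays lay below all 4 AML12 arrays, with the lowest value of all on the v-erbA array with RA at 24 h. The difference was -0.40 ± 0.06 (limma adjusted p = 5.23e-04), with pairs from -0.69 to -0.29. The probe set 1455959_s_at gave -0.31 ± 0.05 (limma adjusted p = 4.78e-04), lower in 4 of 4 pairs although its ranges overlapped, at 3179 to 4594 units in the v-erbA line and 4524 to 5444 units in AML12. Gclm encodes the modifier subunit, which raises the ligase's affinity for glutamate. Its probe set 1418627_at had 1717 and 1561 units (24 h and 3 h) with RA and 1423 and 1487 units untreated in the v-erbA line. In AML12 the values were 2142 and 2153 units with RA and 1772 and 1884 units untreated. The lines did not overlap, and the difference was -0.36 ± 0.04 (limma adjusted p = 1.55e-04). The probe set 1439050_at gave -0.25 ± 0.05 (limma adjusted p = 0.00304), lower in 4 of 4 pairs. It overlapped between lines, with 782 to 1206 units in the v-erbA line and 937 to 1319 units in AML12.

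The regulators differed less than Srxn1. Nfe2l2 had 3008 and 2945 units (24 h and 3 h) with RA and 3138 and 2961 units untreated in the v-erbA line. AML12 showed 4299 and 3654 units with RA and 3585 and 3413 units untreated. The lines did not overlap, and the v-erbA values lay within a narrow band while the AML12 value with RA at 24 h stood above the rest. The difference was -0.30 ± 0.05, or 1.23-fold lower (limma adjusted p = 7.85e-04). Its other probe set, 1457117_at, lay below the pooled median on all arrays, with 27.3 to 54.2 units in the v-erbA line and 30.6 to 65.9 units in AML12. Keap1 on probe set 1450746_at had 467 and 562 units (24 h and 3 h) with RA and 515 and 541 units untreated in the v-erbA line. AML12 had 640.3 and 804 units with RA and 700.0 and 874 units untreated. The lines again did not overlap, and the difference was -0.51 ± 0.06, or 1.42-fold lower (limma adjusted p = 7.37e-05). Its second probe set, 1450747_at, with 136 to 148 units in the v-erbA line and 160.2 to 203 units in AML12, gave -0.33 ± 0.07 (limma adjusted p = 0.00292). Transcripts of the activator and of its inhibitor were thus both lower in the v-erbA line.

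Hmox1, whose enzyme breaks haem down to biliverdin, iron and carbon monoxide, went the other way. It had 294 and 296 units (24 h and 3 h) with RA and 392 and 305 units untreated in the v-erbA line. In AML12 it had 227 and 246 units with RA and 305 and 244 units untreated. The untreated 24 h array was the highest of each line, and it made the ranges of the lines overlap. Within each matched pair Hmox1 was higher with v-erbA, by 0.25 to 0.34, and the difference was 0.31 ± 0.08, or 1.24-fold (limma adjusted p = 0.0112). Without the untreated 24 h array of the v-erbA line the call was lost, at 0.25 (limma adjusted p = 0.0515).

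Txnrd1, the cytosolic thioredoxin reductase, did not pass on any of its 3 probe sets. On 1421529_a_at it had 2117 to 2386 units in the v-erbA line and 2105 to 2574 units in AML12, a difference of -0.08 ± 0.04 (limma adjusted p = 0.155). The other probe sets gave -0.13 ± 0.07 on 1424486_a_at and -0.23 ± 0.11 on 1424487_x_at, a kind of probe set that can also detect other transcripts (limma adjusted p = 0.144 and 0.106). All 3 had ranges that overlapped between lines. Without the untreated 24 h AML12 array 1421529_a_at passed, at -0.12 (limma adjusted p = 0.0223), and without the v-erbA array with RA at 3 h 1424487_x_at passed, at -0.32 (limma adjusted p = 0.0394). Slc7a11, the cystine importer that feeds glutathione synthesis, was dim. On 1443536_at it had 51.8 and 59.9 units (24 h and 3 h) with RA and 51.9 and 44.8 units untreated in the v-erbA line. AML12 values were 61.0 and 81.0 units with RA and 55.1 and 109 units untreated. Only the 2 AML12 arrays of 3 h exceeded the pooled median, so the probe set entered the fit through the line where it is higher, and its line test is not read here. Its other probe set had 58.7 to 63.2 units in the v-erbA line and 61.0 to 72.5 units in AML12. Nqo1, the quinone reductase often used as a marker of Nrf2 activity, had 1 probe set that lay below the pooled median everywhere, with 47.8 to 59.3 units in the v-erbA line and 46.8 to 64.8 units in AML12.

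Hepatocyte markers also moved with the line. The summed signal of the 9 markers was 27244 to 32678 units in the v-erbA line and 30831 to 43313 units in AML12. Alb and Ttr were the largest parts of that sum on every array. Past the threshold 5 of the 9 were lower and 1 was higher, with a median of -0.63 over the list. The summed signal of 4 biliary and progenitor markers, all of them expressed, was 3240 to 4125 units in the v-erbA line and 4772 to 5953 units in AML12. Of these 4, Krt19 fell by 0.93 and Krt7 rose by 0.47 (limma adjusted p = 5.34e-06 and 8.42e-04), and the median over the list was -0.06. The part of these markers in the antioxidant differences was not tested. Apoa1 had 200 to 742 units in the v-erbA line. The untreated 24 h AML12 array had the highest Apoa1 signal, 7093 units against 1823 to 2682 units on the other AML12 arrays. Without that array the 11 called member probe sets all passed with the same direction, Srxn1 at -1.07 on 1426875_s_at, Keap1 at -0.52 on 1450746_at and Hmox1 at 0.35. Within the arrays of 24 h alone, Keap1 on 1450747_at (-0.26, limma adjusted p = 0.126) and Gclm on 1439050_at (-0.19, limma adjusted p = 0.0727) did not pass. The difference between the v-erbA effects at 24 h and 3 h was past the threshold for 0 of 15 member probe sets with limma and for 0.112% of all probe sets. At an unadjusted p under 0.05 the count was also 0 of 15, against 8.67%.

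**Figure D2:**
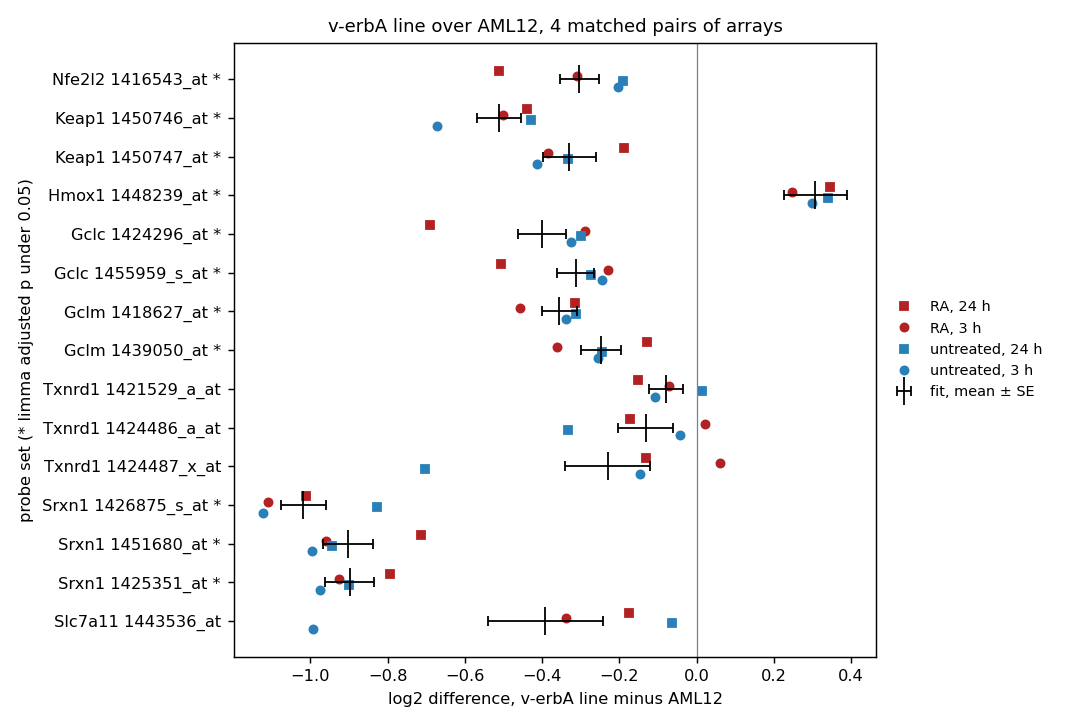
Log2 difference, v-erbA line minus AML12, for each of the 15 tested member probe sets (rows); coloured symbols are the 4 matched pairs (same treatment, same time), and the black bar with whiskers is the fitted mean ± SE. Srxn1 lies between -1.12 and -0.71 in all pairs of its 3 probe sets and Hmox1 is the only member to the right of 0 in all 4 pairs.

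The comparison of RA with untreated cells asked whether pathway genes responded to RA. Responses were small and the ligase subunits moved apart: Gclc was lower and Gclm higher with RA in all 4 pairs on both probe sets of each. The other members did not pass. In counts, 1 of 15 member probe sets fell and 1 rose, against 0.477% lower and 0.669% higher, 1.15% in all, among all probe sets tested. Whatever their p, 4 of 15 were lower and 4 of 15 higher with RA in all 4 pairs, against 11.4% and 9.52% of all probe sets. Besides Gclc and Gclm these were Keap1 on 1450747_at and Txnrd1 on 1424486_a_at, lower, and Srxn1 on 1426875_s_at and 1425351_at, higher. An unadjusted p under 0.05 was found for 6 of 15, against 11.6%. Among all probe sets 167 were higher and 119 lower, a split that became 233 higher and 94 lower after median centring of the arrays. Of the 9 hepatocyte markers 1 fell with RA, Hnf4a, by 0.27 (limma adjusted p = 0.0409), and of 4 biliary and progenitor markers 1 rose, Sox9, by 0.55 (limma adjusted p = 0.00613). The part of these markers was not tested.

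For Gclc, the arrays given above place each RA value below its untreated partner on 1424296_at. RA changed the signal by -32.7% at 24 h and -14.8% at 3 h in the v-erbA line, and by -11.5% at 24 h and -16.8% at 3 h in AML12. The largest decrease was thus on the v-erbA array of 24 h. The difference was -0.31 ± 0.06, just over the threshold (limma adjusted p = 0.0501). With matched pairs as a block it passed (limma adjusted p = 0.0386), as it did in 8 of 20 alternative settings in all. On 1455959_s_at Gclc fell by 0.29 ± 0.05 (limma adjusted p = 0.0226), with changes of -27.6% and -14.4% in the v-erbA line and of -14.8% and -15.2% in AML12, at 24 h and 3 h in each.

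Gclm on 1439050_at had 1206 and 896 units (24 h and 3 h) with RA and 895 and 782 units untreated in the v-erbA line. For AML12 they were 1319 and 1156 units with RA and 1064 and 937 units untreated. Each RA array exceeded its partner, by 34.8% and 14.6% in the v-erbA line and by 24.0% and 23.3% in AML12. Gclm rose by 0.30 ± 0.05 on this probe set (limma adjusted p = 0.0245). On 1418627_at the difference was 0.20 ± 0.04 (limma adjusted p = 0.0798), positive in 4 of 4 pairs. On all Gclc and Gclm probe sets the RA and untreated arrays overlapped when the lines were pooled.

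These RA calls rested on few arrays. The Gclm call was lost without any 1 of 7 arrays (limma adjusted p from 0.0537 to 0.141) and held only when the v-erbA array with RA at 3 h was left out. The Gclc call was lost without the untreated 24 h AML12 array, the AML12 array with RA at 3 h, or either untreated v-erbA array (limma adjusted p from 0.0550 to 0.119). Neither passed without the mean-variance trend (limma adjusted p = 0.171 for Gclc and 0.118 for Gclm). The signs did not change in any of these fits.

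Hmox1 differed by -0.20 ± 0.08 with RA (limma adjusted p = 0.372). The RA minus untreated difference was -0.39 in the v-erbA line and -0.40 in AML12 at 24 h, and -0.04 in the v-erbA line and 0.01 in AML12 at 3 h. The test of RA effects between times gave -0.38 ± 0.11 for it (limma adjusted p = 0.608, unadjusted p = 0.00907), so the difference between times did not pass. For that test 0 of 15 member probe sets and 0.00801% of all probe sets passed with limma, and 1 of 15 and 7.21% at an unadjusted p under 0.05. Srxn1 differed by 0.10 ± 0.06, 0.05 ± 0.06 and 0.19 ± 0.06 on 1426875_s_at, 1451680_at and 1425351_at (limma adjusted p = 0.575, 0.851 and 0.255). Keap1 differed by -0.08 ± 0.06 on 1450746_at and Txnrd1 by 0.00 ± 0.04 on 1421529_a_at (limma adjusted p = 0.659 and 0.986).

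**Figure D3:**
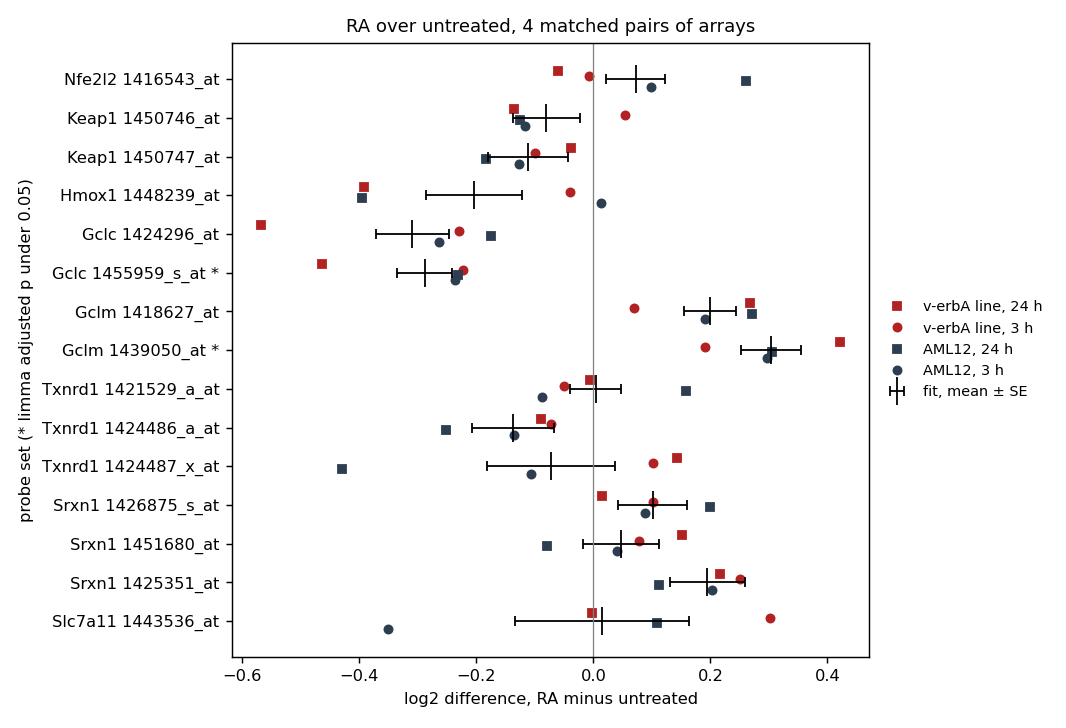
Log2 difference, RA minus untreated, for the same 15 probe sets; coloured symbols are the 4 matched pairs (same line, same time), and the black bar with whiskers is the fitted mean ± SE. Both Gclc probe sets lie left of 0 and both Gclm probe sets right of 0 in every pair, and the Hmox1 points of 24 h lie at -0.39 and -0.40.

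The study's design asks how RA responses differ between cells with v-erbA and without it. No member was shown to respond differently in the lines. Past the threshold there were 0 of 15 member probe sets for the difference of RA effects with limma and 0% of all probe sets, with 1 of 15 and 1.89% at an unadjusted p under 0.05. That 1 was Nfe2l2, with an RA difference of -0.03 ± 0.06 in the v-erbA line and 0.18 ± 0.06 in AML12. The difference between them was -0.21 ± 0.08 (limma adjusted p = 1.00, unadjusted p = 0.027). Within single lines no member passed with limma either, where 0.309% of all probe sets passed in AML12 and 0% in the v-erbA line. At an unadjusted p under 0.05 the counts were 5 of 15 in the v-erbA line and 5 of 15 in AML12, against 3.45% and 10.4% of all probe sets. The Gclc response on 1424296_at was -0.40 ± 0.08 in the v-erbA line and -0.22 ± 0.08 in AML12, a difference of -0.18 ± 0.12 (limma adjusted p = 1.00). That of Gclm on 1439050_at was 0.31 ± 0.08 in the v-erbA line and 0.30 ± 0.08 in AML12, a difference of 0.01 ± 0.11. Equal responses of the lines were not shown by these tests.

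At 24 h relative to 3 h, Srxn1 fell on all 3 tested probe sets, by 0.31 ± 0.06, 0.34 ± 0.06 and 0.41 ± 0.06 on 1426875_s_at, 1451680_at and 1425351_at (limma adjusted p = 0.00306, 0.00288 and 0.00105), each lower in 4 of 4 pairs. For Keap1, Gclm and Txnrd1 the probe sets of a gene did not behave alike. Keap1 fell by 0.24 ± 0.06 on 1450746_at (limma adjusted p = 0.0109), while 1450747_at differed by -0.08 ± 0.07. Gclm rose by 0.24 ± 0.05 on 1439050_at (limma adjusted p = 0.00568), while 1418627_at differed by -0.01 ± 0.04. Txnrd1 fell by 0.15 ± 0.04 on 1421529_a_at (limma adjusted p = 0.0236), and its other probe sets differed by 0.05 ± 0.07 and 0.09 ± 0.11. Gclc passed on neither probe set, with -0.18 ± 0.06 on 1424296_at and -0.11 ± 0.05 on 1455959_s_at (limma adjusted p = 0.0513 and 0.114), both lower in 4 of 4 pairs. In counts 5 of 15 member probe sets were lower and 1 was higher, against 13.8% lower and 16.6% higher, 30.4% in all, among all probe sets. Hepatocyte markers moved with time as well, 5 of 9 higher and 1 lower at 24 h. Among these 9, Apoa2 had 115 to 408 units at 24 h and 43.6 to 61.4 units at 3 h. It entered the fit through the arrays of 24 h, where it is higher, so its time test is not read here. The macrophage marker Csf1r was lower at 24 h, and of the biliary and progenitor markers Sox9 was higher and Krt19 lower. Adgre1, another macrophage marker, had 47.7 to 57.0 units at 24 h and 83.5 to 114 units at 3 h. The mesenchymal marker Col1a1 had 0.64 to 5.78 units at 24 h and 77.3 to 119 units at 3 h. Adgre1 and Col1a1 entered the fit through the arrays of 3 h, where they are higher, so their time tests are not read here. The part of these markers was not tested. The Txnrd1 call was lost without the untreated 3 h AML12 array, or without the untreated 3 h, untreated 24 h or RA 24 h array of the v-erbA line (limma adjusted p from 0.0559 to 0.0851).

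Further genes with related functions, not all of them members of the Nrf2 pathway, were taken from 7 lists of 100 genes in all. Of these, 87 were tested through their brightest probe set. With v-erbA, 56 of the 87 were lower and 10 higher past the threshold. These are to be read against 26.9% and 26.5% of 12015 genes with 1 probe set each, or 24.3% and 25.4% of all probe sets. The lists, too, were chosen with earlier results of these data known. NADPH supply had 11 lower and 0 higher of 13, with a median of -0.36 against 0.02 for all probe sets tested. The pentose phosphate enzymes Pgd and Tkt fell by 0.81 ± 0.05 and 0.65 ± 0.03, malic enzyme Me1 by 0.58 ± 0.04 and the isocitrate dehydrogenase Idh1 by 0.53 ± 0.03 (limma adjusted p of at most 4.04e-06). The probe sets of Pgd and Tkt, 1436771_x_at and 1439443_x_at, are of the kind that can also detect other transcripts. Pgd gave -1.02 on 1423706_a_at, and Tkt gave -0.92 on 1451015_at and 0.15 on 1436605_at. Superoxide and peroxide enzymes had 5 lower and 0 higher of 5, with a median of -0.74. Among them the oxidase Nox4, which makes hydrogen peroxide, fell by 1.13 ± 0.07, the xanthine dehydrogenase Xdh by 0.84 ± 0.06, and the superoxide dismutases Sod1 and Sod2 by 0.74 ± 0.04 and 0.44 ± 0.04 (limma adjusted p of at most 1.23e-05).

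Detoxification targets had 15 lower and 2 higher of 21, with a median of -0.44. The carbonyl reductase Cbr1 fell by 1.34 ± 0.08 and the transporter Abcc2 by 0.83 ± 0.06 (limma adjusted p of at most 6.96e-06). Gsta2, a glutathione transferase, and Cbr3 did not reach the pooled median in the v-erbA line. Taking that median as their level there, Gsta2 was at least 3.04-fold lower and Cbr3 at least 1.55-fold lower. Both entered the fit through AML12, where they are higher, so their line tests are not read here, although the counts include them. Gsta2 belongs to a family of near-identical genes whose probe sets can share signal. Glutathione synthesis and use had 8 lower and 1 higher of 13, with a median of -0.24. Glutathione synthetase Gss fell by 1.03 ± 0.06, the oxoprolinase Oplah by 1.01 ± 0.09 and glutathione reductase Gsr by 0.67 ± 0.05, and the secreted peroxidase Gpx3 rose by 1.99 ± 0.10 (limma adjusted p of at most 2.01e-05). Gpx3 had 321 to 428 units in the v-erbA line and 71.2 to 91.5 units in AML12. Haem and iron handling had 7 lower and 2 higher of 9, with a median of -0.30. The haem transporter Slc48a1 and the biliverdin reductases Blvrb and Blvra fell by 0.95 ± 0.06, 0.81 ± 0.06 and 0.52 ± 0.06, and the iron exporter Slc40a1 rose by 1.57 ± 0.13 (limma adjusted p of at most 8.35e-05). Slc40a1, like Hmox1 a known Nrf2 target, was thus higher with v-erbA in a list where most genes were lower.

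Thioredoxin and peroxiredoxin genes had 5 lower and 1 higher of 11, with a median of -0.25. Prdx4, Sesn2 and Msrb1, which encode a peroxiredoxin, a sestrin and a methionine sulfoxide reductase, fell by 0.57 ± 0.06, 0.55 ± 0.11 and 0.44 ± 0.06, and Txnip, which encodes the inhibitor of thioredoxin, rose by 0.86 ± 0.04 (limma adjusted p of at most 0.00203). Nrf2 partners and regulators had 5 lower and 4 higher of 15, with a median of 0.05. Bach1, a repressor that competes with Nrf2 for the same elements, fell by 0.68 ± 0.05 and the small Maf gene Mafg by 0.39 ± 0.06, while another small Maf gene, Mafk, rose by 0.45 ± 0.07 and Dpp3, which encodes a Keap1-binding peptidase, by 0.36 ± 0.06 (limma adjusted p of at most 7.88e-04). Not every further probe set of these genes passed, the exceptions belonging to Bach1, Tkt, Sesn2, Sod1 and Sod2. Bach1 differed by -0.18 on 1449311_at, Tkt by 0.15 on 1436605_at, Sesn2 by -0.11 on 1425139_at, Sod1 by 0.08 on 1435304_at and -0.22 on 1440222_at, and Sod2 by -0.08 on 1454976_at.

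**Figure D4:**
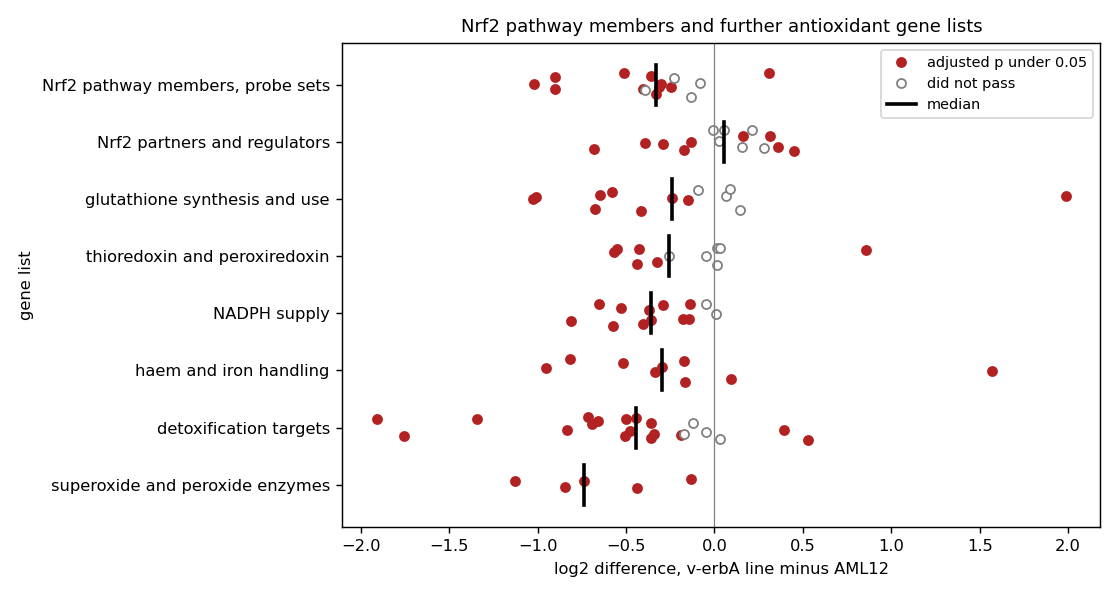
Log2 difference, v-erbA line minus AML12, for the 15 member probe sets (top row) and for the tested genes of the 7 further lists; filled red points passed a limma adjusted p of 0.05, open points did not, and black bars are medians. Medians lie below 0 in every row except Nrf2 partners and regulators, and Gpx3 (1.99), Slc40a1 (1.57) and Txnip (0.86) stand apart on the right.

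With RA 3 of the 87 list genes rose and 0 fell past the threshold, to be read against the 0.669% and 0.477% of all probe sets. In the fit with 1 probe set per gene, 98 of 12015 genes rose and 43 fell. Osgin1, an oxidative stress-induced growth inhibitor, had 1373 and 1292 units (24 h and 3 h) with RA and 837 and 874 units untreated in the v-erbA line. AML12 arrays showed 980.0 and 1276 units with RA and 478 and 706 units untreated. Every RA array lay above every untreated array, and Osgin1 rose by 0.78 ± 0.10 (limma adjusted p = 0.0094). Gsr, which regenerates glutathione, had 989 and 1138 units (24 h and 3 h) with RA and 861 and 886 units untreated in the v-erbA line. In AML12 it had 1762 and 1833 units with RA and 1265 and 1398 units untreated, and it rose by 0.35 ± 0.05 (limma adjusted p = 0.0131). Its second probe set, 1421817_at, gave 0.34 (limma adjusted p = 0.0409). Mafg, counted by its brightest probe set, at 0.27 (limma adjusted p = 0.0779), also had a second probe set, 1434054_at, that passed with RA at 0.38 (limma adjusted p = 0.0148). Abcc2 rose by 0.38 ± 0.06 (limma adjusted p = 0.025). Osgin1, Gsr and Abcc2 were each higher with RA in 4 of 4 pairs. None of these 3 passed when the AML12 array with RA at 3 h was left out (limma adjusted p = 0.0524 for Osgin1, 0.0905 for Gsr and 0.106 for Abcc2). All 3 were lost without the mean-variance trend as well (limma adjusted p = 0.085 for Osgin1, 0.0896 for Gsr and 0.0878 for Abcc2). Within the arrays of 24 h alone, Gsr and Abcc2 did not pass either, at 0.33 and 0.42 (limma adjusted p = 0.102 for each). Gsr was also lost without the untreated 3 h AML12 array (limma adjusted p = 0.0597). Abcc2 was also lost without the untreated 3 h or RA 24 h array of AML12 and without any v-erbA array but the untreated one of 3 h (limma adjusted p from 0.0626 to 0.114).

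At 24 h relative to 3 h, 23 of the 87 list genes were higher and 17 lower, to be read against the 16.6% and 13.8% of all probe sets. In the fit with 1 probe set per gene, 2341 of 12015 genes were higher and 1823 lower. Chac1, which encodes a glutathione-degrading enzyme, rose by 1.35 ± 0.06, Txnip by 0.68 ± 0.04, the glutathione transferases Gstm3 and Gsta4 by 0.36 ± 0.04 and 0.35 ± 0.08, and Msrb1 by 0.27 ± 0.06 (limma adjusted p of at most 0.00765). Blvra fell by 0.34 ± 0.06, Pgls and Pgd, of the pentose phosphate pathway, by 0.30 ± 0.06 and 0.29 ± 0.05, and Xdh by 0.25 ± 0.06 (limma adjusted p of at most 0.00973). The repressor Bach2 and the peroxidase Gpx2 did not reach the pooled median on any array of 24 h, where Bach2 was at least 1.68-fold and Gpx2 at least 1.47-fold lower. Both entered the fit through the arrays of 3 h, where they are higher, so their time tests are not read here. Nfe2l3, a relative of Nrf2, had 59.5 to 84.4 units at 24 h and 10.7 to 25.9 units at 3 h. It entered the fit through arrays of 24 h, so its time test is not read either. Its mean at 24 h stayed below the pooled median and no fold is given. The counts above include these genes.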

How the data were processed

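Expression was measured on Affymetrix arrays, 1 for each of the 8 combinations of line, treatment and time. For each probe set the authors deposited a linear signal intensity. The sources used here do not give the summarization software or the scaling between arrays, and no rescaling was applied. Of 45037 probe sets listed, 1 lacked values on some arrays and was left out. Gene names came from the platform annotation (34944 probe sets with 1 gene, 932 with several, 9160 with none). The offset of 19.9 units added before taking log2 is the 20th percentile of all values. All tests used limma (version 3.58.1, R version 4.3.3) with Benjamini-Hochberg adjustment over the 24955 probe sets tested, and the prior variance followed the mean signal. Line, treatment and time entered additively (4 residual degrees of freedom), and each difference of effects came from a model with that interaction term (3 residual degrees of freedom). A fold against a group that stayed under the pooled median throughout is given as a bound against that median. The number of arrays limits the precision. The labels give no replicate numbers.

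All probe sets of the 10 members are named whatever their values. Of each further list, the rule names up to 4 genes with the largest v-erbA difference past the threshold and in the same direction in all pairs, and up to 2 each for RA and time. For members that span at least 1 log2 unit it adds the 3 genes with the nearest profiles. Members and lists were chosen with earlier results of these data known. Alternatives changed the scaling, offset, dim filter, variance trend, model, probe sets per gene and arrays used. Plots used matplotlib (version 3.10.9) under Python (version 3.11.15).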

Additional observations from a re-analysis of the deposited data

How the results depend on the processing

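No member or named gene past the threshold changed sign under any alternative run. The 11 member probe sets called for v-erbA became 6 with 1 probe set per gene, where 8 were tested in place of 15, and numbered 10 to 13 in all other settings, the higher counts including Slc7a11 or Txnrd1. The 2 called for RA became 0 without the mean-variance trend, 0 with 1 probe set per gene and 4 with all 2-way interactions, and numbered 0 to 4 when single arrays were left out. The 6 called for time became 3 with 1 probe set per gene. With all 2-way interactions Nfe2l2 on 1416543_at and Gclc on 1424296_at and 1455959_s_at also passed for time (limma adjusted p = 0.0127, 2.09e-04 and 0.00577). Gclc on 1424296_at passed for time in 6 of 17 alternative settings in all. In the v-erbA line the count for RA was 0 to 1 when single arrays were left out, the 1 being Gclc on 1424296_at without the v-erbA array with RA at 3 h (-0.57, limma adjusted p = 0.0392). The differences of effects between lines and between times gave 0 members in every setting run. Over all probe sets the 286 called for RA became 25 without the trend, 141 with 1 probe set per gene, 1481 with all 2-way interactions, 1204 within the arrays of 3 h and 62 to 286 when single arrays were left out. Likewise the 77 called for RA in AML12 became 0 without the trend and 1 to 330 when single arrays were left out, the 28 called for the difference of v-erbA effects between times became 0 to 311 over all settings, the 2 called for the difference of RA effects between times became 0 to 98, and the 0 called for RA in the v-erbA line and for the difference of RA effects between lines became at most 9 and 8. With 1 probe set per gene the 12403 called for v-erbA became 6421 and the 7580 called for time became 4164, with fewer tested. With matched pairs as a block, 11 member probe sets passed for v-erbA and 3 for RA, the third being Gclc on 1424296_at. The cause of these changes was not tested. Signals near the pooled median, as for Slc7a11, Nqo1 and the dim probe sets, limit what can be said of those genes.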
